A study of Mus musculus with 60 samples.

Results

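Genes commonly used to recognise regulatory T (Treg) cells were examined in a table of mouse gene counts: Foxp3, Il2ra, Il2rb, Ikzf2, Ikzf4, Ctla4, Icos, Nrp1, Lrrc32 and Izumo1r. They were taken by name, 10 of the 55011 genes in the table. The rule uses no measured value, but the members were chosen with earlier results of these data known. Levels were compared among 8 libraries of sorted Treg cells, of which 2 were from the brown depot (BAT, brown adipose tissue), 3 from the subcutaneous depot (SAT) and 3 from spleen. All of these cells came from untreated wild-type male mice of the reporter strain B6.Foxp3.Thy1.1, 8 weeks old, and were sorted as live CD45+Tcrb+CD4+Thy1.1+ cells. In that strain Thy1.1 is made by cells that use the Foxp3 locus, so the gate itself selects for Foxp3 expression in every group.

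The other 52 libraries of the series were made from whole BAT or SAT of 8-week-old males, and they are used here for levels of the members in whole fat. They came from other strains than the sorted cells and from treated mice, so they are not the tissue those cells were taken from. Comparisons were made there between DTR+ and DTR- mice of the strain B6.Foxp3.DTR, all of them given DT, in groups named D4 (4 libraries each) and D3 (3 each, with PBS in their names), and between C57BL/6J mice given anti-CD25 (PC61) and those given an isotype control antibody (3 each, BAT). Counts over all 52 libraries also include BAT groups of 3 libraries each from the strain B6.Foxp3.DTR: DTR+ and DTR- mice given DT and CL, DTR- mice given DT and PBS, DTR+ mice given DT with an anti-IFNy antibody or its isotype control, and DTR- mice given PBS whose titles name WT and 4deg. The labels do not say what D3 and D4 count from. In Foxp3-DTR mice the diphtheria toxin receptor is carried at the Foxp3 locus, so that toxin removes Foxp3-expressing cells. The labels also do not say whether libraries of a group came from separate animals or from pools, so a p-value measures the spread between these libraries, which may be technical.

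Treg cells restrain other immune cells and are held in their state by the transcription factor Foxp3. They depend on interleukin-2 from other cells, which they bind through a receptor whose alpha and beta chains are CD25 (Il2ra) and CD122 (Il2rb). In adipose tissue Treg cells are known for an activated, tissue-adapted form that differs from the mostly resting population of the spleen.

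Foxp3 did not differ detectably between fat and spleen Treg cells, whereas 7 of the other 9 genes did, in a comparison that called 12.6% of all genes tested. Ctla4 and Icos, a pair of costimulatory-family receptors, were higher in fat Treg cells by 2.39-fold and 2.16-fold. Nrp1 and Ikzf2 were higher by 1.41-fold and 1.34-fold. Izumo1r, Lrrc32 and Il2ra were lower in fat, by 2.76-fold, 2.04-fold and 1.46-fold. None of the 10 passed the test between BAT and SAT, where 0% of all genes passed.

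Promoter sequences of 4 members are printed because they stand for the 3 patterns described here: no detected difference (Foxp3), higher in fat (Ctla4) and lower in fat (Izumo1r, Il2ra). Each is the RefSeq window in build GRCm38.p6 of 250 bases before to 50 after a transcript start, 5′ to 3′ on the gene's strand, and capitals mark matches to the motifs named after them. The windows are Foxp3 chrX:7579426-7579725 (plus strand), Ctla4 chr1:60908775-60909074 (plus strand), Izumo1r chr9:14903718-14904017 (minus strand) and Il2ra chr2:11642542-11642841 (plus strand).
Foxp3: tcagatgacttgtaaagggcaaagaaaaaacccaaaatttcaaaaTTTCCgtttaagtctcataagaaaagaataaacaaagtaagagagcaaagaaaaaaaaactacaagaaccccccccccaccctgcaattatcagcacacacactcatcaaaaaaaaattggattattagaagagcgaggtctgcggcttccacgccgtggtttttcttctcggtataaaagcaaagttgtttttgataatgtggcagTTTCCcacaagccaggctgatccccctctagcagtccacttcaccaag
Ctla4: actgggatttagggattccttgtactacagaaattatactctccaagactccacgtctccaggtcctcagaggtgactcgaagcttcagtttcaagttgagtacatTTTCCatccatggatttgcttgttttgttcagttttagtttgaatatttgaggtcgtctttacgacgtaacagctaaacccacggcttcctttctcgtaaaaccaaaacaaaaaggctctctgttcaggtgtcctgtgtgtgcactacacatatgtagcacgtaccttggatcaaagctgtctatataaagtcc
Izumo1r: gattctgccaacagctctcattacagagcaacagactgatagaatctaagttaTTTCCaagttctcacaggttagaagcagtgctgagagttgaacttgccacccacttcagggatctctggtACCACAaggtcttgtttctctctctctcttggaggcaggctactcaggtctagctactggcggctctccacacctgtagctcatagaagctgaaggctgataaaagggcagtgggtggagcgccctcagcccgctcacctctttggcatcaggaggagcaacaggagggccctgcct
Il2ra: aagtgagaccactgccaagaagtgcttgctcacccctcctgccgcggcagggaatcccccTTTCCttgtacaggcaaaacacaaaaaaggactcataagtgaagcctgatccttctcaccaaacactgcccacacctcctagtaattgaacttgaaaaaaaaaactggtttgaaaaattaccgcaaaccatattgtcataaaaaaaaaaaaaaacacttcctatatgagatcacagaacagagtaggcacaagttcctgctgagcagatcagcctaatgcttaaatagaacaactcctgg
Both strands were searched for GGAAA (the core of NFAT and Rel sites), TGANTCA (AP-1), GTAAACA (forkhead), TTCNNNGAA (STAT) and TGTGGT (Runx). The sequence table held 6 windows for 5 members, Nrp1 and a second Foxp3 start included. GGAAA, or its reverse TTTCC, was in 6 of 6, and in 61.3% of all 32851 promoter windows. TGTGGT, printed in its reverse form ACCACA, was in the Izumo1r window alone and in 16.8% of all windows. TTCNNNGAA was in the second Foxp3 window alone, where it overlaps a GGAAA match, and in 8.3% of all, and TGANTCA and GTAAACA were in none of the 6 and in 7.81% and 3.65% of all.

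In the annotation used for positions (GENCODE M21, the same GRCm38 build as the files) the members lie on several chromosomes. Foxp3 spans chrX:7573644-7595245, Il2ra chr2:11642807-11693193, Il2rb chr15:78479256-78495271 and Nrp1 chr8:128358604-128503363. Ikzf2 spans chr1:69531214-69687245, Ikzf4 chr10:128630843-128645991, Lrrc32 chr7:98489283-98502181 and Izumo1r chr9:14885814-14903949. Ctla4 (chr1:60887000-60915832) and Icos (chr1:60977927-61000320) are neighbours 62.1 kb apart, and Cd28 (chr1:60716800-60773359), the activating receptor of the same family, lies 114 kb before Ctla4. The printed Foxp3 and Ctla4 windows sit at RefSeq starts 6032 and 22025 bases inside these spans. Foxp3 shares 853 exon bases with Flicr, a non-coding gene, and shorter stretches with Ccdc22, Ppp1r3f and Gm36995. Ikzf2, Ikzf4 and Nrp1 share 144, 37 and 80 exon bases with Gm29114, Gm26876 and Mir1903. Flicr and Mir1903 lie on the same strand as their partner and the others on the opposite strand; the libraries do not mark strand, so reads in none of these shared stretches can be assigned to 1 gene. Flicr had 227 and 241 counts in the BAT libraries, 402 to 441 in SAT and 400 to 552 in spleen, against at least 1741 counts of Foxp3 in every Treg library.

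Treg libraries held 4662976 to 5721368 counts each, and the 10 members together took 0.514 to 0.601% of them. Whole-tissue libraries are within the range of 3007241 to 9673342 counts of the full series. Levels below are CPM (counts relative to the library's total) scaled by the trimmed mean of M values (TMM) unless another scale is named. Fold changes are log2 values from the edgeR quasi-likelihood test across all genes, given with a standard error (SE), and p-values carry the Benjamini-Hochberg adjustment, with calls made under 0.05. Summed levels of gene lists are in CPM of total counts. The summed level of 9 gate genes (Ptprc, Cd4, Thy1, T cell receptor and CD3 genes) was 6721 to 6878 CPM in BAT, 6844 to 7175 in SAT and 7118 to 7598 in spleen Treg cells, and Foxp3 was abundant in all 8.

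Fat Treg cells of both depots against spleen Treg cells gave 4 higher, 3 lower and 3 uncalled members. Over all 13847 genes tested 12.6% were called, 7.29% higher and 5.27% lower. Library ranges of fat and spleen did not overlap in 7 members, and in 19.9% of all genes. The median log2 fold change was 0.18 over the members and -0.01 over all genes. All 10 members passed the filter on low counts. Since the members were not drawn at random, these shares describe them and are not a test of the list.

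**Figure D1:**
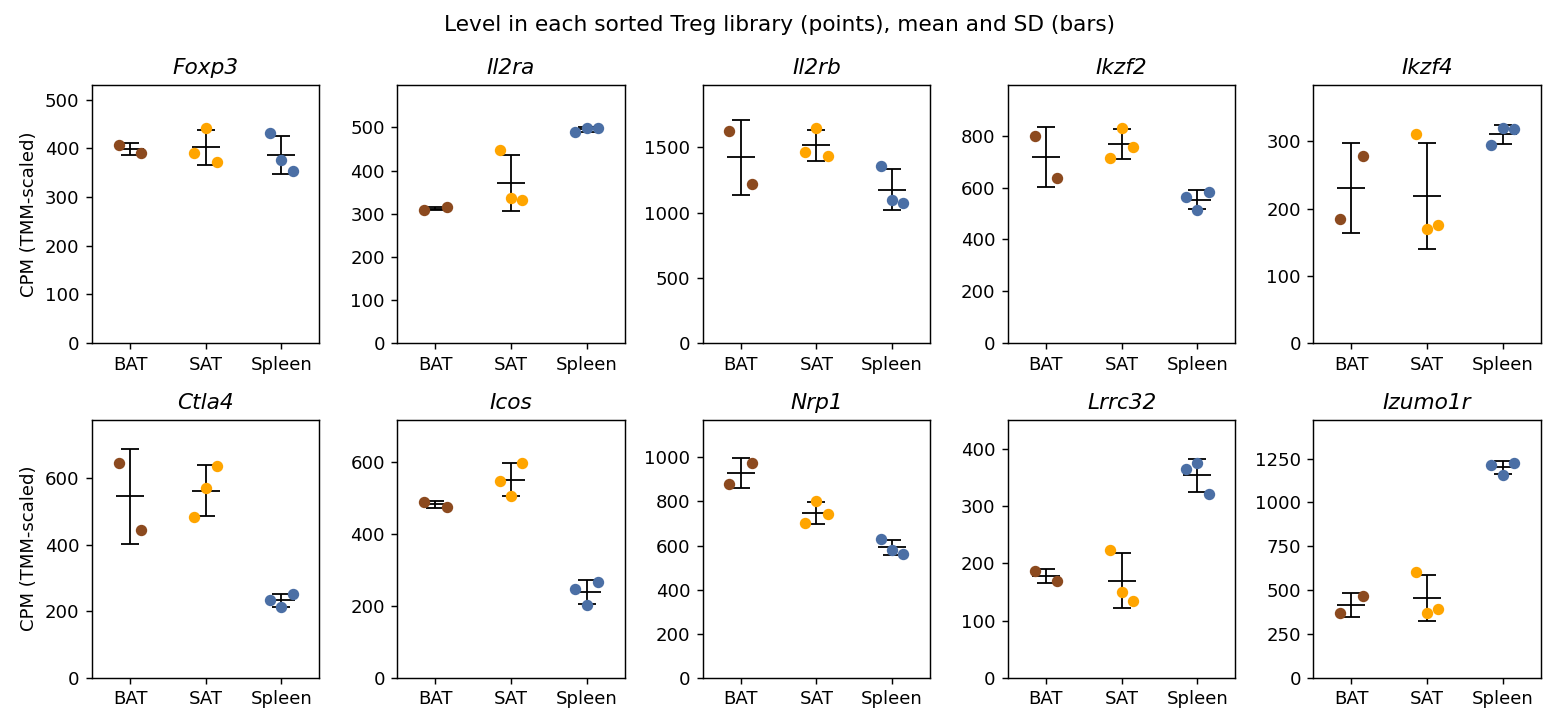
Level of each member in every sorted Treg library (points), with group mean and SD (bars), in TMM-scaled CPM; BAT has 2 libraries, SAT and spleen 3 each. The points of Foxp3 overlap between groups, all fat points of Ctla4 and Icos lie above all spleen points, and all fat points of Izumo1r and Lrrc32 lie below them.

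Foxp3, the factor that defines the lineage, had 407 and 390 CPM in BAT, 391, 442 and 373 CPM in SAT, and 430, 376 and 354 CPM in spleen Treg cells. The 3 ranges overlap, with the highest value in SAT and the lowest in spleen. On the log2 scale fat differed from spleen by 0.05 ± 0.09 (SE; adjusted p = 0.793), with a 95% interval from -0.15 to 0.25, and its sign turned (-0.042) when libraries were scaled by 6 of the T cell gate genes (Ptprc, Trac, Trbc2, Cd3e, Cd4, Thy1). Of those 6 genes, Ptprc and Thy1 were themselves called higher and Trbc2 lower in fat Treg cells. Thy1 counts may also include the reporter Thy1.1. Counted against Cd3e, a chain of the T cell receptor complex, Foxp3 gave 0.444 ± 0.0243 in BAT (SD, n = 2), 0.446 ± 0.0364 in SAT and 0.397 ± 0.028 in spleen (SD, n = 3 each).

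Il2ra, the chain that gives the interleukin-2 receptor its high affinity and the surface marker CD25, had 309 and 315 CPM in BAT, 447, 336 and 332 CPM in SAT, and 490, 499 and 499 CPM in spleen Treg cells. Every fat library lay below every spleen library, and SAT replicate 1 was the nearest to them. The log2 fold change was -0.54 ± 0.10 (SE; adjusted p = 0.00411). Il2rb, the signalling chain shared with the interleukin-15 receptor, had 1627 and 1217 CPM in BAT, 1464, 1649 and 1433 CPM in SAT, and 1356, 1097 and 1077 CPM in spleen. BAT replicate 2 fell among the spleen values, and the log2 fold change of 0.32 ± 0.11 (SE) did not pass (adjusted p = 0.0734), although DESeq2 called it (0.0487). As a description, Il2ra counts per Il2rb count averaged 0.224 ± 0.0484 in BAT (SD, n = 2), 0.247 ± 0.0525 in SAT and 0.426 ± 0.0567 in spleen (SD, n = 3 each), with fat values of 0.19 to 0.305 and spleen values of 0.361 to 0.463.

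Ikzf2, which encodes the zinc-finger factor Helios, had 799 and 637 CPM in BAT, 716, 831 and 757 CPM in SAT, and 562, 513 and 584 CPM in spleen Treg cells. All 5 fat values exceeded the spleen values. The log2 fold change was 0.42 ± 0.09 (SE; adjusted p = 0.0106), and it no longer passed without spleen replicate 2 (0.37, adjusted p = 0.076). Ikzf4, which encodes the related factor Eos, a corepressor partner of Foxp3, had 184 and 278 CPM in BAT, 311, 169 and 176 CPM in SAT, and 294, 320 and 318 CPM in spleen. Within fat it was the most variable member, with a coefficient of variation of 29.4% over the 5 libraries, against 4.65% over the spleen libraries, where 7 members varied more. Its log2 fold change of -0.47 ± 0.19 (SE) did not pass (adjusted p = 0.131), but without SAT replicate 1 it was -0.64 and passed (0.00678). Ikzf4 counts per Ikzf2 count averaged 0.334 ± 0.146 in BAT (SD, n = 2), 0.29 ± 0.125 in SAT and 0.564 ± 0.053 in spleen (SD, n = 3 each).

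Ctla4, the inhibitory receptor that competes with CD28 for its ligands, had 646 and 443 CPM in BAT, 483, 569 and 635 CPM in SAT, and 234, 212 and 250 CPM in spleen Treg cells. The lowest fat value stood far above the highest spleen value. Its log2 fold change was 1.25 ± 0.13 (SE; adjusted p = 6.83e-05). Icos, the inducible costimulator that supports activated T cells, had 488 and 474 CPM in BAT, 545, 506 and 597 CPM in SAT, and 247, 202 and 266 CPM in spleen. These groups were also fully separate, and the log2 fold change was 1.11 ± 0.10 (SE; adjusted p = 2.73e-05). Their neighbour Cd28 rose by 0.71 ± 0.11 (log2, SE; adjusted p = 0.00124).

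Nrp1, a co-receptor for semaphorins that marks many thymus-derived Treg cells in mice, had 881 and 976 CPM in BAT, 703, 803 and 743 CPM in SAT, and 631, 582 and 561 CPM in spleen Treg cells. The groups formed steps without overlap, with BAT above SAT and SAT above spleen. On the log2 scale fat differed from spleen by 0.50 ± 0.08 (SE; adjusted p = 0.00149).

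Lrrc32, which encodes GARP, the surface anchor of latent TGF-beta on Treg cells, had 186 and 168 CPM in BAT, 224, 150 and 134 CPM in SAT, and 364, 376 and 321 CPM in spleen Treg cells. All fat values were below all spleen values, and the log2 fold change was -1.03 ± 0.15 (SE; adjusted p = 0.000572). Izumo1r, which encodes folate receptor 4, a surface protein abundant on resting Treg cells in mice, had 367 and 464 CPM in BAT, 603, 370 and 392 CPM in SAT, and 1216, 1159 and 1227 CPM in spleen. It differed most among the members, with a log2 fold change of -1.47 ± 0.14 (SE; adjusted p = 3.01e-05). The highest fat value, in SAT replicate 1, was still below every spleen value.

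Other cell types could enter a sort, so their marker genes are given beside these values. The summed level of 7 macrophage markers was 8.79 to 13.5 CPM in BAT, 7.17 to 15.1 in SAT and 46.1 to 109 in spleen Treg libraries, and 4 of the 7 (Csf1r, C1qa, C1qb, C1qc) were lower in fat; C1qc was at 0 in every fat library. The 5 endothelial markers (Cdh5, Pecam1, Kdr, Cldn5, Egfl7) summed to 147 to 177 CPM in BAT, 124 to 202 in SAT and 230 to 332 in spleen, nearly all of it Pecam1 (log2 fold change -0.82 ± 0.16, SE; adjusted p = 0.00548), while Cdh5 and Cldn5 had at most 5 and 4 counts in any Treg library. The part of these cells in the lower members was not tested. CD8 and NK markers (Cd8a, Cd8b1, Ncr1, Klrb1c) summed to 27.9 to 32.2 CPM in BAT, 19.8 to 29.6 in SAT and 20.9 to 47.4 in spleen, with no gene called. B cell markers (Ms4a1, Cd79a, Cd79b, Pax5) summed to 55.8 to 69.2 CPM in BAT, 26.2 to 30.01 in SAT and 25.2 to 66.4 in spleen, with no gene called. Dendritic markers (Flt3, Xcr1, Cd209a, Siglech) summed to 9.87 to 44.5 CPM in BAT, 6.35 to 31.5 in SAT and 2.22 to 4.2 in spleen, with Xcr1 higher in fat. Adipocyte markers summed to at most 3.62 CPM in any Treg library, neutrophil markers to 0.578, fibroblast markers to 9.48 and red cell markers to 10.8 CPM. Of these 4 lists only Col1a1, a fibroblast collagen, was called, lower in fat than in spleen. By depot, BAT over spleen called 1 gene of the fibroblast list, lower, and 1 of the dendritic list, higher. SAT over spleen called 0 of either list.

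**Figure D2:**
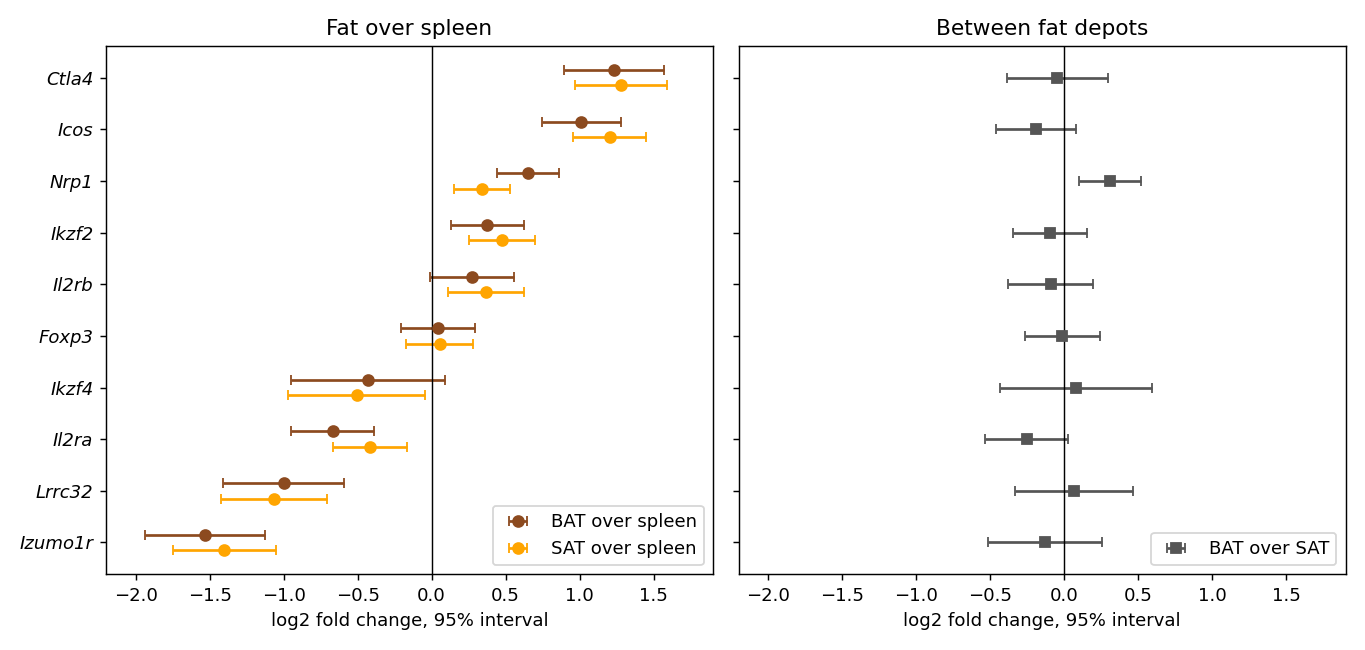
Log2 fold change of each member with its 95% interval, for BAT over spleen and SAT over spleen (left, sharing the 3 spleen libraries) and BAT over SAT (right). Ctla4 and Icos lie above 0 and Lrrc32 and Izumo1r below 0 in each depot, and between depots only the interval of Nrp1 leaves out 0.

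By depot, BAT Treg cells against spleen gave 3 higher members (Ctla4, Icos, Nrp1), 3 lower (Il2ra, Lrrc32, Izumo1r) and 4 uncalled, beside 8.77% of all genes called (5.57% higher, 3.21% lower). SAT Treg cells against spleen gave 4 higher (those 3 and Ikzf2), the same 3 lower and 3 uncalled, beside 8.34% of all genes (5.56% higher, 2.78% lower). Both comparisons share the spleen libraries, so their values are given side by side only. Ctla4 had a log2 fold change of 1.23 ± 0.16 in BAT and 1.28 ± 0.14 in SAT, and Izumo1r -1.53 ± 0.19 and -1.40 ± 0.16 (SE). Nrp1 had 0.65 ± 0.10 in BAT (adjusted p = 0.00122) and 0.34 ± 0.09 in SAT (adjusted p = 0.0295). Il2ra had -0.67 ± 0.13 in BAT (adjusted p = 0.00764) and -0.42 ± 0.11 in SAT (adjusted p = 0.0412). Ikzf2 passed in SAT (0.47 ± 0.10, SE; adjusted p = 0.0122) and missed in BAT (0.38 ± 0.11; 0.0584). Without SAT replicate 2, SAT replicate 3 or spleen replicate 2, 4 members were called in place of 7, as Il2ra, Ikzf2 and Nrp1 no longer passed.

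BAT against SAT Treg cells gave no called member in edgeR, with 0% of all genes called. At an unadjusted p under 0.05 there were 1 member, Nrp1, and 1231 genes (8.89%), and DESeq2 called 0 members and 89 genes. Nrp1 averaged 929 ± 67.2 CPM in BAT (SD, n = 2) and 749 ± 50.4 CPM in SAT (SD, n = 3), a log2 fold change of 0.31 ± 0.10 (SE; adjusted p = 0.38) with a 95% interval from 0.10 to 0.52. Library ranges did not overlap in 3 members (Il2ra and Icos lower and Nrp1 higher in BAT), and in 23.7% of all genes. Missing the threshold does not show that the depots are alike, and the intervals say how large a difference remains possible. For Foxp3 the interval ran from -0.26 to 0.24, for Ctla4 from -0.39 to 0.30 and for Ikzf4 from -0.44 to 0.59 on the log2 scale.

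Within SAT several members, but not all, set replicate 1 apart, a pattern picked out after the values were seen. That library had the highest Il2ra, Ikzf4, Lrrc32 and Izumo1r of the 3 SAT libraries. It had the lowest Ctla4, Ikzf2 and Nrp1, each time on the side of the spleen values. The library was in the middle of the SAT values for Foxp3 (391 CPM), Il2rb (1464 CPM) and Icos (545 CPM). Its 20 immediate-early genes (transcripts that appear within minutes of stimulation, tissue digestion included) summed to 7768 CPM, against 13340 and 13040 CPM in the other SAT libraries, 10250 and 9396 in BAT and 1140 to 1265 in spleen. Of those 20 genes 17 were higher and none lower in fat than in spleen Treg cells, with a median log2 fold change of 3.43. Fosb changed by 8.84 ± 0.42, Jun by 5.78 ± 0.27, Fosl2 by 5.84 ± 0.34 and Junb by 3.39 ± 0.17 (log2, SE; adjusted p of 7.53e-07 or lower in edgeR). The part of this programme in the levels of the members was not tested. Such a shift was not limited to SAT replicate 1. BAT replicate 2 was nearer to the spleen values than BAT replicate 1 in Ctla4 (443 against 646 CPM), Ikzf2 (637 against 799) and Il2rb (1217 against 1627). It was also nearer in Ikzf4 (278 against 184), Izumo1r (464 against 367) and, by little, Il2ra and Icos, while Nrp1 and Lrrc32 went the other way. Its immediate-early genes summed to 9396 CPM, against 10250 CPM in BAT replicate 1.

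Levels of different genes are compared per kilobase of exon. In BAT Treg cells Il2rb led with 332 CPM per kb, followed by Ctla4 (234), Izumo1r (179), Icos (140), Nrp1 (94.9) and Foxp3 (87.1). Ikzf2 (61.8), Il2ra (54.6), Ikzf4 (38.5) and Lrrc32 (37.8) were lowest. In SAT the order was the same except that Foxp3 (87.8) stood above Nrp1 (76.6), a pair whose library ranges overlapped.

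In spleen Treg cells Izumo1r led with 518 CPM per kb, above Il2rb (275) and Ctla4 (99.5) without overlap between neighbours. Il2ra (86.8), Foxp3 (84.5), Lrrc32 (75.5), Icos (69.5) and Nrp1 (60.4) followed, each overlapping with its neighbours among these 5. Ikzf4 (51.8) and Ikzf2 (47.6) closed the order, with ranges below that of Nrp1 and overlapping each other. Foxp3 had nearly the same level per kb in all 3 groups, while Lrrc32 was last in fat, overlapping with Ikzf4, and in the middle of the order in spleen.

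**Figure D3:**
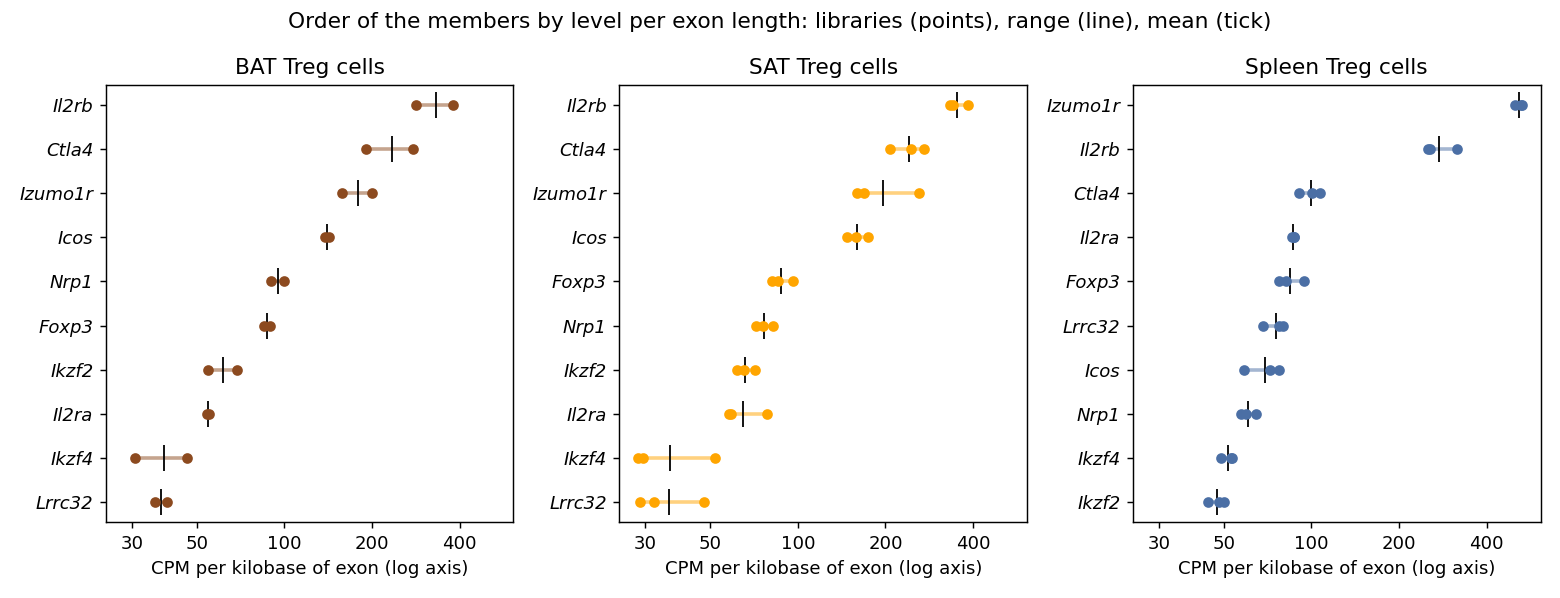
Members ordered by level in each Treg group, in TMM-scaled CPM per kilobase of exon on a log axis; points are libraries, lines their range and ticks the mean. Il2rb leads in BAT and SAT and Izumo1r in spleen.

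Set against Foxp3 in the same library, Ctla4 gave 1.36 ± 0.317 counts per Foxp3 count in BAT (SD, n = 2), 1.41 ± 0.255 in SAT and 0.605 ± 0.0892 in spleen (SD, n = 3 each). Icos gave 1.21 ± 0.0134 in BAT (SD, n = 2), 1.38 ± 0.228 in SAT and 0.621 ± 0.115 in spleen (SD, n = 3 each). Both exceeded 1 in every fat library and stayed under 1 in every spleen library. Izumo1r went the other way, with 1.05 ± 0.206 in BAT (SD, n = 2), 1.14 ± 0.362 in SAT and 3.13 ± 0.325 in spleen (SD, n = 3 each).

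**Figure D4:**
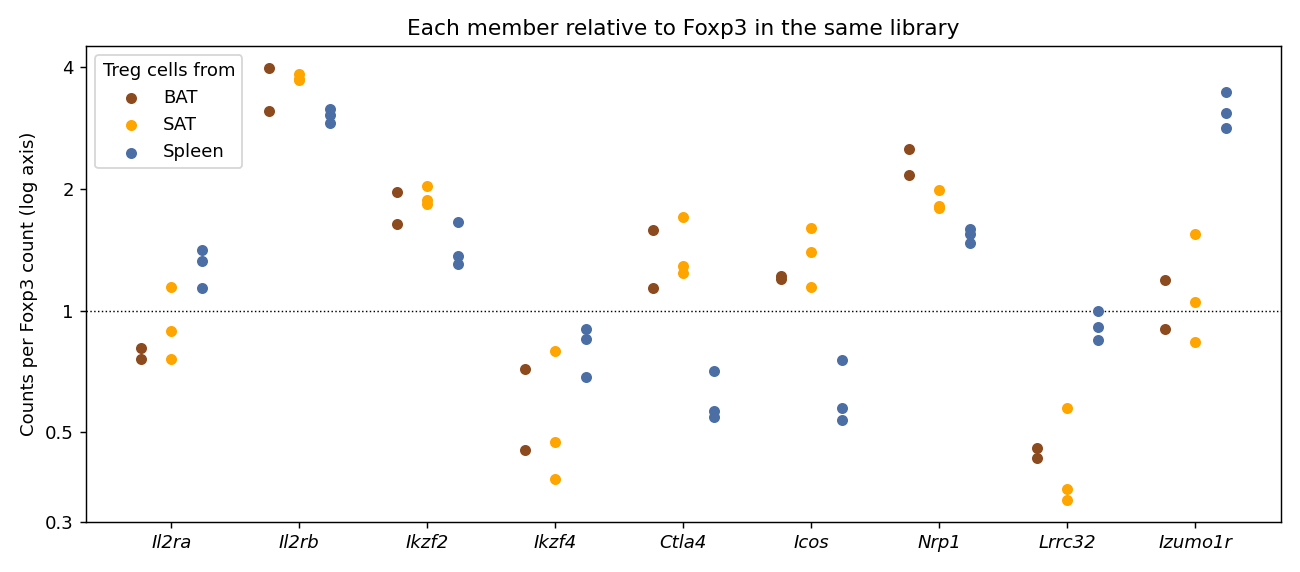
Counts of each other member per Foxp3 count in the same library, on a log axis, for BAT, SAT and spleen Treg libraries (1 point each); the dotted line marks equal counts. Ctla4 and Icos lie above the line in all fat and below it in all spleen libraries, and Izumo1r lies near it in fat and near 3 in spleen.

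Over the 8 Treg libraries the members other than Foxp3 fell into 2 sets by Pearson correlation of log2 CPM, given as a description because all 8 points share the gap between fat and spleen. Ctla4 correlated with Icos (0.96) and Ikzf2 (0.95) and inversely with Izumo1r (-0.97) and Lrrc32 (-0.94). Izumo1r correlated with Lrrc32 (0.96) and Il2ra (0.94). Foxp3 correlated most with Il2rb (0.705) and little with Ctla4 (0.25) or Izumo1r (-0.31).

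Among 7043 genes with a mean of at least 20 CPM, the 5 most like Ctla4 over the same 8 libraries were Srgn, Cxcr6, Chsy1, Glrx and Fnbp1 (r of 0.99 each). Cxcr6, a chemokine receptor of tissue lymphocytes, differed by 3.47 ± 0.34 between fat and spleen (log2, SE; adjusted p = 0.00011). The 5 most like Izumo1r were Bcl2, Il4ra, Ssbp2, Parp3 and Tnfrsf14 (r of 0.986 to 0.995). For Foxp3 they were Esf1, Prkacb, Hdgf, Sft2d1 and Mettl14 (r of 0.905 to 0.95), none of them called between fat and spleen. Each list holds the highest of 7043 correlations over only 8 libraries, so high values can arise from the ranking alone. Whether the named genes are tied to Foxp3, Ctla4 or Izumo1r was not tested.

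Other genes of the same pathways or gene families, or related by name, were followed in lists chosen with earlier results of these data known. Beside the list counts, 12.6% of all genes tested were called in fat over spleen, 7.29% higher and 5.27% lower. Of 26 further Treg signature genes 13 were higher and 4 lower in fat than in spleen Treg cells, with a median log2 fold change of 0.52. Capg, an actin-capping protein, rose by 0.96 ± 0.10 (adjusted p = 7.78e-05), and Dusp4, a MAP kinase phosphatase, by 1.89 ± 0.25 (0.000341). Tigit, an inhibitory receptor, rose by 1.09 ± 0.14 (0.00035), and Ptger2, a prostaglandin E2 receptor, fell by 1.16 ± 0.12 (6.7e-05; all log2, SE).

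Of 30 partners and regulators of Foxp3, 6 were higher and 3 lower, with a median of 0.13. Gata3 rose by 1.49 ± 0.16 (adjusted p = 6.83e-05), Runx3 by 1.46 ± 0.14 (3.51e-05) and Smad3 by 0.74 ± 0.12 (0.0019), while Satb1, a chromatin organiser, fell by 1.44 ± 0.17 (0.00013; all log2, SE). Of 17 genes around the interleukin-2 receptor 3 were higher and 3 lower, with a median of -0.04. The kinase gene Pim1 rose by 1.03 ± 0.16 (0.00134) and the feedback inhibitor Socs2 by 0.88 ± 0.18 (0.00605). The survival factor Bcl2 fell by 1.89 ± 0.20 (7e-05) and the interleukin-4 receptor chain Il4ra by 0.76 ± 0.09 (0.000186; all log2, SE).

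Around Ikzf2 and Ikzf4, 1 of the 3 other Ikaros-family genes was called: Ikzf3, the Aiolos gene, rose by 0.41 ± 0.12 (adjusted p = 0.044), whereas Ikzf1 had -0.20 ± 0.09 (0.168) and Ikzf5 0.68 ± 0.64 (0.55; all log2, SE). By depot, 1 of these 3 was called higher in BAT over spleen and 0 in SAT over spleen. Around Ctla4 and Icos, 9 genes of the CD28 family and its ligands gave 1 higher (Cd28) and 3 lower. The lower ones were Cd86, a ligand of antigen-presenting cells, by -1.19 ± 0.26 (0.00961), Tnfrsf14, the receptor partner of Btla, by -0.94 ± 0.17 (0.00314), and the inhibitory receptor Btla by -0.64 ± 0.19 (0.0414; all log2, SE). The median of the 9 was 0.19.

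Around Nrp1, 7 of 10 partners passed the low-count filter and 1 was called, the semaphorin receptor Plxna1 (1.16 ± 0.26, log2, SE; adjusted p = 0.0126), with a median of 0.14. Over all genes 12.6% were called, so 1 of 7 is near the general share. Around Lrrc32, 10 of 11 genes of latent TGF-beta handling were tested, and 3 were higher and none lower, with a median of 0.20. These were Itgav (1.24 ± 0.21; adjusted p = 0.00221), the processing protease gene Furin (1.06 ± 0.19; 0.00283) and Tgfb1 itself (0.88 ± 0.21; 0.0172; all log2, SE). Lrrc32 thus moved opposite in sign to these 3, which were named because they were called. The other tested genes of the list were not called. By depot, the list gave 2 higher and 1 lower in BAT over spleen, and 3 higher and 0 lower in SAT over spleen. Around Izumo1r, the folate transporter gene Slc19a1 was the only one of 3 that could be tested (-0.87 ± 0.27, log2, SE; adjusted p = 0.0501), and Folr1 and Folr2 were filtered out. By depot, Slc19a1 was called lower in BAT over spleen (log2 fold change -1.26) and was not called in SAT over spleen (-0.48).

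Of the 9 gate genes themselves, Ptprc (0.26 ± 0.06) and Thy1 (0.44 ± 0.10) were higher and Cd3d (-0.37 ± 0.08), Trbc1 and Trbc2 (-0.34 ± 0.07, log2, SE) lower in fat Treg cells. Between BAT and SAT Treg cells no gene of any of these lists was called, beside 0% of all genes.

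In whole fat the most lineage-restricted members were near the limit of detection. Foxp3 was at 0 counts in 37 of 52 libraries, Izumo1r in 40 and Ctla4 in 33, and Icos in 20. These numbers pool groups in which Treg cells were targeted (DTR+ mice given DT, and PC61) with the other groups. In D4 BAT, Foxp3 was at 0 in 4 of 4 DTR+ and 3 of 4 DTR- libraries. In D4 SAT it was at 0 in 3 of 4 DTR+ and 2 of 4 DTR- libraries. The highest levels of these 4 genes were 7.77 CPM of total counts for Icos, 5.53 for Izumo1r, 4.33 for Foxp3 and 1.05 for Ctla4, all in 1 library, D4 SAT DTR- replicate 3. In sorted Treg cells they had 207 to 584, 349 to 1290, 364 to 444 and 217 to 620 CPM in that order of genes. Nrp1, which endothelial and other tissue cells also use, was present in all 52 with 173 to 458 CPM of total counts, against 591 to 936 in Treg cells. Lrrc32 reached 1.47 to 25.4 CPM in whole fat, against 131 to 385 in Treg cells, and Il2rb 0 to 29.3 CPM, against 1120 to 1600. Ikzf2 reached 1.59 to 12.7 CPM, against 526 to 807, and Ikzf4 at most 3.72 CPM, against 165 to 335. In whole tissue fewer cells of a type and less RNA per cell cannot be told apart. The whole-fat and sorted-cell libraries also differ in strain and treatment.

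**Figure D5:**
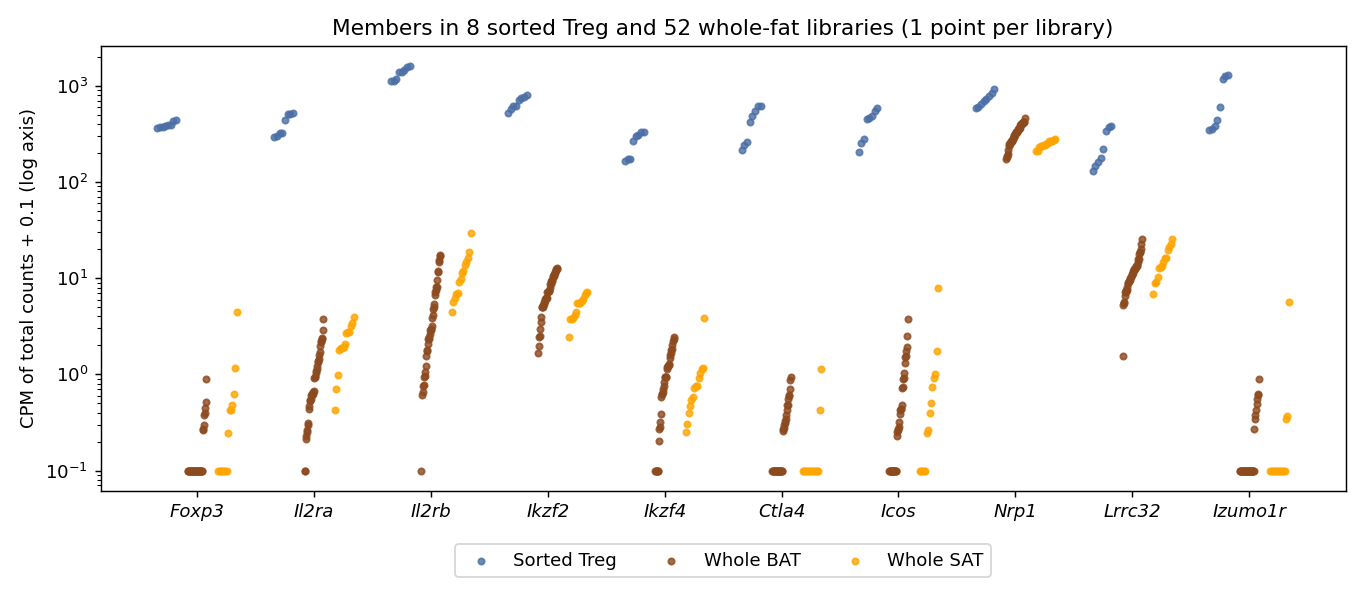
Level of each member in CPM of total counts, with 0.1 added so that zeros can be drawn on the log axis, in 8 sorted Treg, 38 whole-BAT and 14 whole-SAT libraries (1 point each). The whole-fat points include groups in which Treg cells were targeted. Points on the lowest line are libraries with 0 counts; Nrp1 is the member whose whole-tissue level comes nearest to that of Treg cells.

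The removal of Treg cells could not be read from Foxp3 itself. In D4 BAT it had 0 of 20488334 counts in DTR+ mice, which allows up to 0.146 CPM (3 counts over the group), and 2 counts, all in 1 library, in DTR- mice. In D4 SAT it had 3 counts over 4 DTR+ libraries and 31 over 4 DTR- libraries, 29 of them in DTR- replicate 3. That library stood apart from the other 3 of its group: its gate genes summed to 314.5 CPM of total counts, against 74.9 to 91.9 CPM in the others. Its CD8 and NK markers summed to 49.9 CPM, against 4.05 to 8.66, and its B cell markers to 194 CPM, against 5.57 to 7.52. The part of these cells in its Foxp3, Il2rb, Icos and Izumo1r counts was not tested.

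Il2rb was the member that changed in whole BAT. In D4 it had 6.15, 8.52, 15.9 and 11.0 CPM in DTR+ and 2.72, 2.63, 1.82 and 0.616 CPM in DTR- BAT. The groups did not overlap, and the log2 fold change was 2.37 ± 0.42 (SE; adjusted p = 0.00101). It was the only one called of the 4 members that passed the filter (Il2rb, Ikzf2, Nrp1, Lrrc32), beside 16.1% of all genes, 8.73% of all genes higher. Ranges of the groups did not overlap in 20.2% of all genes. In D3 BAT Il2rb had 4.62, 6.89 and 2.69 CPM in DTR+ and 0.985, 1.04 and 1.15 CPM in DTR- mice, again without overlap. The log2 fold change was 2.14 ± 0.51 (SE; adjusted p = 0.0347), 1 of 4 tested members called beside 3.52% of all genes called and 2.24% called higher; ranges did not overlap in 24.6% of all genes. The other 3 tested members had log2 fold changes of 0.44 (Ikzf2), -0.05 (Nrp1) and 0.11 (Lrrc32) in D4 and 0.0068, -0.05 and 0.42 in D3, none past the threshold. The D3 call of Il2rb was lost without DTR+ replicate 1 or 2 or any 1 of the 3 DTR- libraries (adjusted p of 0.0643 to 0.194).

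Il2rb is also used by CD8 T cells and NK cells, and their markers are given beside it. The 4 CD8 and NK markers summed to 2.90 to 12.2 CPM in D4 DTR+ and 0.290 to 1.17 CPM in D4 DTR- BAT, and to 1.68 to 3.39 CPM in D3 DTR+ and 0.522 to 2.37 CPM in D3 DTR- BAT, without overlap in D4 and with overlap in D3. The 9 gate genes summed to 26.1 to 76.9 CPM in D4 DTR+ and 8.54 to 15.5 CPM in D4 DTR- BAT, and to 18.8 to 28.8 CPM in D3 DTR+ and 6.61 to 10.02 CPM in D3 DTR- BAT. Their part in the Il2rb change was not tested.

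In whole SAT none of the 5 members tested was called in either experiment, beside 0.314% of all genes in D4 and 0% in D3. At an unadjusted p under 0.05 no member passed, beside 7.42% of all genes in D4 and 4.99% in D3, and DESeq2 called no member. Il2rb in D4 had 13.5, 16.9, 15.04 and 18.02 CPM in DTR+ and 8.89, 11.7, 29.1 and 9.51 CPM in DTR- SAT, where DTR- replicate 3 alone exceeded the DTR+ values. The log2 fold change was 0.09 ± 0.34 (SE; adjusted p = 0.974), and 0.66 without that library (adjusted p = 0.47). The other members tested in D4 SAT had log2 fold changes of 0.28 (Il2ra), -0.41 (Ikzf2), -0.16 (Nrp1) and 0.44 (Lrrc32). In D3 SAT Il2rb had 11.6, 4.37 and 6.81 CPM in DTR+ and 5.49, 6.95 and 6.41 CPM in DTR- mice, with full overlap, and a log2 fold change of 0.28 ± 0.37 (SE; adjusted p = 0.982). Whether the change differed between BAT and SAT was not tested.

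In BAT of mice given the anti-CD25 antibody PC61, 3 members could be tested against isotype controls and none was called, beside 0.651% of all genes. At an unadjusted p under 0.05 no member passed either, beside 10.8% of all genes, and DESeq2 called no member. Nrp1 averaged 404 ± 15.6 CPM with PC61 and 365 ± 97.3 CPM with isotype antibody (SD, n = 3 each), and its log2 fold change of 0.15 had a 95% interval from -0.19 to 0.48. Lrrc32 averaged 8.51 ± 3.53 and 10.8 ± 2.46 CPM, and Ikzf2 9.97 ± 2.1 and 11.4 ± 1.7 CPM with PC61 and with isotype antibody. Il2ra, the antibody's target, had 26 counts over the 3 PC61 libraries and 4 over the 3 isotype libraries, too few to be tested. Il2rb was filtered out too, with 15, 14 and 9 counts (2.81, 2.23 and 1.46 CPM of total counts) with PC61 and 3, 4 and 4 counts (0.503, 0.672 and 0.652 CPM) with isotype antibody. These values did not overlap, as was so for 16.2% of the genes tested, and without the filter its log2 fold change was 1.68 (edgeR adjusted p = 0.662).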

How the data were processed

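Gene counts of 60 libraries in 19 groups were used as the authors deposited them, as raw read counts per gene. Per the submitters' processing notes the reads were aligned with STAR 2.7.3a to mm10 and counted with featureCounts; the annotation release, the strand setting and the treatment of multiply matching reads were not stated in any source used here. Per the labels' protocols, RNA of double-sorted cells, or 2 ng of whole-tissue RNA, was primed by oligo(dT) and turned into libraries by Smart-seq2 and Nextera XT, methods that do not mark strand. Totals were 3007241 to 9673342 counts, and intervals cover the spread between libraries, not unseen sources of error.

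Genes were filtered with filterByExpr, scaled by TMM and tested with edgeR 4.0.16 (robust quasi-likelihood F test, R 4.3.3) at a Benjamini-Hochberg adjusted p of 0.05, over the 8 Treg libraries for Treg comparisons and over the groups compared otherwise; SEs and 95% intervals come from the same test. The procedure was tested on simulated data. Correlations used log2 CPM with a pseudocount of 0.5. DESeq2 1.42.0, other scalings, no filter, fits of the 2 groups alone, a replicate block and leaving out each library were the alternatives. Replicates were compared in 67 pairs and differed beyond counting error (chi-square divided by its degrees of freedom, 7.02 to 37.6). Positions are from GENCODE M21, which matched 96.4% of the genes.

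All 10 members are named. Other genes were named by rule: from each list up to 4 called in fat over spleen by smallest p, lists of 5 or fewer in full, and the 5 genes most correlated with Foxp3, Ctla4 and Izumo1r. The members and lists were chosen with earlier results of these data known. 1 gene of the B cell list is not reported here, and the sums of that list leave it out.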

Additional observations from a re-analysis of the deposited data

Results flagged for a closer look

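In groups of 4 libraries, 8 of 35 sets of values of a member held 1 library far from the other 3 (Dixon's criterion at 95%), where chance gives about 1 in 20 for continuous values. In 4 of the 8 the other 3 libraries had 0 counts, so any count would meet the criterion and that rate does not apply to them. All are whole-tissue libraries in D4, and levels are CPM of total counts.

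SAT DTR- replicate 3 accounted for 4 of them. It had 4.33 CPM of Foxp3 (29 counts), against 0 to 0.328 in the others of its group, 29.3 CPM of Il2rb (196 counts), against 9.02 to 11.3, 7.77 CPM of Icos (52 counts), against 0 to 0.809, and 5.53 CPM of Izumo1r (37 counts), against 0. The other 4 rest on 2 to 25 counts. SAT DTR+ replicate 2 had 0.378 CPM of Foxp3 (3 counts), with 0 in the others, and SAT DTR+ replicate 1 had 3.72 CPM of Ikzf4 (25 counts), against 0.294 to 0.629. BAT DTR- replicate 1 had 0.3 CPM of Foxp3 (2 counts) and BAT DTR- replicate 3 had 0.782 CPM of Ctla4 (6 counts), each with 0 in the others.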

How the results depend on the processing

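Of the alternatives, 794 values kept direction and call, 44 reversed, 23 lost and 16 gained a call and 10 counts of members moved by over 1.5 times. Leaving out a library in turn gave 6 to 8 members called in fat over spleen (7), 4 to 8 in SAT over spleen (7) and 0 to 1 in D3 BAT (1). Without a filter on low counts 1 member was called in D4 SAT, Izumo1r, whose 37 counts were all in DTR- replicate 3. Deviations of same-numbered libraries from their group means correlated with r of -0.23 to 0.164. With so few libraries per group these values cannot show whether the numbers pair libraries. A replicate block gave 7, 6 and 5 members for fat, BAT and SAT over spleen, 1 in D4 BAT and 0 in D3 BAT. It turned Foxp3 in BAT over spleen (-0.012) and Ctla4 (0.013) and Lrrc32 (-0.021) in BAT over SAT. Scaling by 6 gate genes, which moved the median of all genes to -0.10, turned Foxp3 in fat (-0.042), BAT (-0.049) and SAT (-0.035) over spleen. In D3 BAT Ikzf2 was -0.0072 with DESeq2 and -0.0077 with RLE scaling. Leaving out a library moved log2 fold changes near 0 across it: Foxp3 from -0.015 to 0.13 in fat, -0.022 to 0.12 in BAT and -0.029 to 0.14 in SAT over spleen. In BAT over SAT Foxp3 spanned -0.064 to 0.061, Il2rb -0.32 to 0.090, Ikzf2 -0.27 to 0.045, Ikzf4 -0.26 to 0.42, Ctla4 -0.35 to 0.19, Lrrc32 -0.079 to 0.32 and Izumo1r -0.32 to 0.12. In D4 BAT Nrp1 spanned -0.14 to 0.089 and Lrrc32 -0.20 to 0.35, and in D4 SAT Il2rb -0.093 to 0.66. In D3 BAT Ikzf2 spanned -0.10 to 0.20 and Nrp1 -0.13 to 0.041, and in D3 SAT Nrp1 -0.16 to 0.011, Il2ra -0.28 to 0.99, Il2rb -0.16 to 0.55 and Lrrc32 -0.12 to 0.71. The cause of these moves was not tested. SAT Il2ra was not called without any 1 of SAT replicates 2 and 3 and the 3 spleen libraries (adjusted p of 0.0978 to 0.165) nor under the block (0.0599). In SAT over spleen, Nrp1 lost its call in 7 of 14 alternatives, Il2ra in 6 and Ikzf2 in 3. Over all genes, calls were 1739 in fat over spleen, 914 to 1862 with a library left out, 1215 in BAT over spleen (634 to 1304; 784 with the block) and 1155 in SAT over spleen (640 to 1428). With DESeq2 and without a filter, calls were 89 and 136 for BAT over SAT (0), 93 and 155 for D4 SAT (40), 18 and 72 for D3 SAT (0; 11 with the block) and 219 and 347 for PC61 (75; 11 to 100 with a library left out). D3 BAT had 411 calls, 788 without a filter and 118 to 391 with a library left out. Only 2 BAT Treg libraries were available to the fits, and in whole tissue Foxp3, Ikzf4, Ctla4, Icos and Izumo1r were too scarce to be tested in any comparison, Il2ra in BAT and Il2rb with PC61.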
